A study of Mus musculus with 84 samples.

Results

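The libraries described here are those of pre-granulocyte-monocyte progenitors (pGM) sorted from the liver of newborn mice, with the MLL-ENL fusion and without it. They were chosen by their titles, and they make up 7 of the 84 libraries of the study. There were 4 MLL-ENL libraries, numbered 2, 3, 4 and 5, and 3 control libraries, numbered 2, 3 and 5. The mice were of day P0, the tissue was neonatal liver, and no doxycycline was given. The labels put both groups under fetal induction, give the MLL-ENL genotype to one and wild type to the other, and the study's design text says that the MLL-ENL transgene was regulated by tetracycline. Which promoter drove the regulator, and whether the controls carried any part of the transgene system, is not known from the labels. The study as a whole compared such mice at several ages, in committed hematopoietic progenitor cells (HPC), pGM and granulocyte-monocyte progenitors (GMP). Libraries of HPC and GMP at P0, and of HPC, pGM and GMP at 10 weeks, also enter below. They too were of MLL-ENL and control mice, and no doxycycline was given. Nothing in the labels says that the libraries came from separate animals. The p-values below thus measure a spread between libraries, which may in part be technical. In the main fit of all genes that spread was estimated over 47 libraries of P0 and 10 weeks together, not from these 7 alone.

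MLL-ENL joins the start of the histone methyltransferase MLL, gene Kmt2a, to the end of ENL, gene Mllt1, a reader protein that belongs to complexes promoting transcript elongation. The MLL portion keeps a CXXC domain that binds unmethylated CG dinucleotides. The fusion is found in acute leukemias of infants and adults and is known for keeping late Hoxa genes and their partner Meis1 active in blood progenitors, in which these genes are normally shut down as cells mature. A pGM is a myeloid progenitor one step before the GMP, the cell that gives rise to neutrophils and monocytes.

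The total count was 12.82, 18.62, 14.4 and 14.16 M counts in MLL-ENL libraries 2, 3, 4 and 5, and 14.22, 13.96 and 12.79 M in control libraries 2, 3 and 5. Levels are given in CPM, counts scaled to a common library size after TMM scaling, which corrects for differences in library composition. The human sequences of the transgene checked the labels. Human KMT2A and MLLT1 reads together came to 11.7, 8.76, 10.4 and 11.7 CPM of the mouse counts in MLL-ENL libraries 2, 3, 4 and 5, against 0.141, 0.143 and 0.625 in control libraries 2, 3 and 5. The groups did not overlap, with a mean of 10.6 ± 1.4 in MLL-ENL and 0.303 ± 0.279 in control pGM (SD, n = 4 and 3; 2-sided exact permutation p = 0.0571, the smallest that 4 against 3 samples allow). Mouse Kmt2a and Mllt1 differed by −0.15 ± 0.36 and 0.15 ± 0.28 on the log2 scale (estimate ± SE; adjusted p = 1 for both by edgeR's quasi-likelihood test).

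The labelled cell type was checked against genes of its sorting antigens and granules, some of which are given here. Fcgr3, the Fc receptor whose high level defines a GMP, averaged 69.5 CPM in MLL-ENL and 86.4 CPM in control pGM. In HPC it averaged 7.33 CPM with MLL-ENL and 26.1 CPM without, and in GMP 921 CPM with MLL-ENL and 813 CPM without. For Fcgr3, both groups of pGM thus lay between the other populations. They did so for Flt3, Itga2b and the granule protease gene Elane too, with Elane at 104 and 345 CPM in MLL-ENL and control pGM. Other sorting antigen genes were less clear. In MLL-ENL pGM, Fcgr2b (20.6 CPM) lay between MLL-ENL HPC (7.88 CPM) and GMP (145 CPM) but below control HPC (26.4 CPM). Ptprc (203 CPM) was level with MLL-ENL GMP (202 CPM), and Slamf1 (1.29 CPM) was above MLL-ENL and control HPC (1.06 and 1.15 CPM). The stem cell antigen gene Ly6a was at 13.4 and 11.6 CPM in MLL-ENL and control pGM, below the 166 and 224 CPM of MLL-ENL and control HPC. Cd3e, which marks T cells, was at 0 in all 7 libraries, as was the mature neutrophil antigen gene Ly6g. In bulk samples such as these, fewer cells of a type and less RNA per cell cannot be told apart. The libraries also differed in sex-linked transcripts, which were not balanced between the groups and not part of the fit. Xist, the X-inactivation RNA of females, was at 83.9, 20.4, 39.1 and 58.8 CPM in MLL-ENL libraries 2, 3, 4 and 5, against 52.4, 0.477 and 0.376 CPM in control libraries 2, 3 and 5. The Y-linked gene Ddx3y was at 30.8, 29.7, 30.3 and 0.0653 CPM in the same MLL-ENL libraries, against 46.1, 97.2 and 92.4 CPM in the control libraries. MLL-ENL libraries 2, 3 and 4 and control library 2 thus held transcripts of both sexes.

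The question of this comparison was which genes the fusion alters in newborn pGM. Of 14899 genes tested, 52 differed between MLL-ENL and control pGM at a false discovery rate (FDR, the Benjamini-Hochberg adjusted p of edgeR's quasi-likelihood F test over all genes) of 0.05, which is 0.349% of the genes. There were 24 that rose (0.161%) and 28 that fell (0.188%). At an unadjusted p of 0.05 there were 952 (6.39%). The fit took its spread from 47 libraries, and 26 of the 52 kept their call in the 7 libraries alone without a block. Among the genes that rose were Hoxa9, Hoxa10, Meis1 and Mecom, and genes best known from other tissues such as Hnf4a and Ddx4. Among those that fell were Cd74, H2-Aa and H2-Eb1 of antigen presentation, the dendritic cell genes Naaa and Nrp1 and the macrophage gene Aif1. Leaving out one library gave 22 such genes without control library 2, 24 without control library 3, 26 without MLL-ENL library 4, 34 without MLL-ENL library 5 and up to 49 without another. With the replicate number as a block in the same fit there were 35 (0.235%), of which 14 rose (0.094%) and 21 fell (0.141%). Of these, 32 were among the 52. MLL-ENL library 4, which has no control with its number, does not count toward the difference there. The replicate block below is this fit of 47 libraries unless the 7 alone or a paired fit is named. The 12 largest rises and falls given below in each library were picked among genes whose groups did not overlap, so that is no further result.

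Among the known targets of MLL fusions, Hoxa9, Hoxa10, Meis1, Mecom and Skida1 rose. Hoxa9, a homeobox gene needed by many leukemias with MLL rearrangement, was at 38.3, 34.8, 24.6 and 31.3 CPM in MLL-ENL libraries 2, 3, 4 and 5, against 16.6, 10.6 and 8.88 CPM in control libraries 2, 3 and 5. The lowest MLL-ENL library lay above the highest control, and the log2 fold change was 1.42 ± 0.25 (FDR 0.00209). Its neighbor Hoxa10, just upstream of it on chromosome 6, was at 13.5, 9.39, 9.64 and 9.86 CPM in MLL-ENL libraries, against 2.69, 2.79 and 2.71 CPM in controls. The controls hardly differed from each other, while MLL-ENL library 2 stood above the other three. The log2 fold change was 1.95 ± 0.41 (FDR 0.0138, and 0.0691 with the replicate block). Meis1, the homeobox partner of HOXA9, was the most abundant gene that rose, at 302, 318, 280 and 356 CPM in MLL-ENL libraries, against 177, 109 and 138 CPM in controls (1.15 ± 0.24, FDR 0.0142). No library of one group reached into the other, which the choice of these genes required. Without control library 2, 3 or 5 Hoxa10 had an FDR of 0.12, 0.095 or 0.0907, and Meis1 had an FDR of 0.215 without control library 3, 0.0968 without control library 5 and 0.0574 without MLL-ENL library 5.

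Mecom encodes EVI1, a zinc finger factor of hematopoietic stem cells whose high level marks a poor outcome in myeloid leukemia. It was at 25.4, 30.6, 30.2 and 23.5 CPM in MLL-ENL libraries 2, 3, 4 and 5, against 2.69, 3.34 and 3.61 CPM in control libraries 2, 3 and 5. All MLL-ENL libraries lay close together and far above the controls, with a log2 fold change of 3.09 ± 0.43 (FDR 4.05e-05). Skida1 (chr2:18040676-18049051 on GRCm38), a little-studied gene with a SKI/DACH domain beside the fusion partner gene Mllt10, was at 14.3, 13.7, 13 and 16.2 CPM in MLL-ENL libraries, against 0.813, 0.545 and 1.05 CPM in controls. Its controls rested on 8 to 14 reads each, and its log2 fold change was 4.14 ± 0.57 (FDR 4.05e-05). Both genes kept an FDR under 0.05 in each fit that left out one library. On chromosome 11 the noncoding transcript 8430419K02Rik, which lies beside Meis1, also rose (3.34 ± 0.56, FDR 0.00111).

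The promoters of genes that rose and fell are shown because the CXXC domain in the fusion binds CG dinucleotides, which are in capitals here. Each is the RefSeq sequence on GRCm38.p6 from 250 bases before to 50 after the start, 5′ to 3′ on the gene's strand. Mecom has starts at chr3:30509710-30510009 and chr3:30013155-30013454, both on the minus strand, and Il9r and Chil5 at chr11:32200230-32200529 and chr3:106032846-106033145, also minus. Nrp1 and H2-Eb1, which fell, are at chr8:128358823-128359122 and chr17:34305617-34305916, on the plus strand.
Mecom (first start): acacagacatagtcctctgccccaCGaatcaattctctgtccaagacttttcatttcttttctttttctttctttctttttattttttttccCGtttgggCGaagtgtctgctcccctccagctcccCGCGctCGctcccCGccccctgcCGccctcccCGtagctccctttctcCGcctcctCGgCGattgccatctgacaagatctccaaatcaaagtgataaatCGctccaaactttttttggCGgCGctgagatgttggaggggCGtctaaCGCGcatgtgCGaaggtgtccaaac
Mecom (second start): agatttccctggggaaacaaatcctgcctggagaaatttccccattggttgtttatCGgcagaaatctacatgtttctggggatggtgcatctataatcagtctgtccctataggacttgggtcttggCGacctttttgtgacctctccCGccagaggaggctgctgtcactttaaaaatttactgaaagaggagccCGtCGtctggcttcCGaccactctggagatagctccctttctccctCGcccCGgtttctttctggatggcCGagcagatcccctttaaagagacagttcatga
Il9r: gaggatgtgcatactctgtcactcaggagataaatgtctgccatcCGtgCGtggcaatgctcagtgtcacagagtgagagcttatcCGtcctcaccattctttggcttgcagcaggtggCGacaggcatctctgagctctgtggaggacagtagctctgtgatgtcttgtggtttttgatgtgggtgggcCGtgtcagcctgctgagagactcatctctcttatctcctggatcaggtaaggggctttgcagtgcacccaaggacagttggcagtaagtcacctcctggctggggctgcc
Chil5: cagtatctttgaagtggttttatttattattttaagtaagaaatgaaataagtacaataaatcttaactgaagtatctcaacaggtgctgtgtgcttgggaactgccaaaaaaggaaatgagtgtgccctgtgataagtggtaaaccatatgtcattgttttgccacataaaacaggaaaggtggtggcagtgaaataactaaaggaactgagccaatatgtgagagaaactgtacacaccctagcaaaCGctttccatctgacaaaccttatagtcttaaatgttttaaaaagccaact
Nrp1: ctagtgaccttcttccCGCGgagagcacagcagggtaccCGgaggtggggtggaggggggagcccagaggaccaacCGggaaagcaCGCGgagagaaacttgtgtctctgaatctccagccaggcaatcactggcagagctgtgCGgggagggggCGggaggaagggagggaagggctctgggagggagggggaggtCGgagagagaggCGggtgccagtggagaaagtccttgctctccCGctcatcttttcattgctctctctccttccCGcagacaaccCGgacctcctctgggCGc
H2-Eb1: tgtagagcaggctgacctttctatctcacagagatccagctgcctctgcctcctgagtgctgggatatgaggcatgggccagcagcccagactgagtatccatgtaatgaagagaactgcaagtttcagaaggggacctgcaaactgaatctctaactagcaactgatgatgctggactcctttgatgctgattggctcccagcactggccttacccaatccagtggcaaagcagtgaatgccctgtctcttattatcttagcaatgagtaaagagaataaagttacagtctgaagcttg

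In the promoters shown, the count of CG ranged from 0 to 19, all below the median of 20 for the genes tested. The first Mecom promoter held 19 CG, and 28.1% of the 32851 promoters in the table hold as many or more. The second held 9, Il9r held 5 and Chil5 held 1. Of the genes that fell, Nrp1 held 14 and H2-Eb1 held none, while Naaa and Aif1, whose promoters are not shown, held 12 and 1. Over all genes with an entry, the median count was 11 for the genes that rose (21 promoters) and 8.5 for those that fell (22 promoters), against 20 for all genes tested (10794 promoters). No test was made of these counts, and a CG in the sequence says nothing of its methylation or of binding.

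None of the other Hox genes passed FDR 0.05. Of 20 genes of the Hox clusters A and B on the list, 10 were tested, and 7 were at 0 in all 7 libraries, among them Hoxa11, Hoxa13 and Hoxb6 to Hoxb9. The 10 tested had a median log2 fold change of 1.29, against 0.002 over all genes tested. Hoxa7, which lies next to Hoxa9, was at 64.5, 79.7, 57.1 and 71.2 CPM in MLL-ENL libraries, against 44.5, 37.7 and 41.2 CPM in controls, so the groups did not overlap. Its log2 fold change was 0.73 ± 0.19 with an FDR of 0.0847, and in a fit of the 7 libraries alone with the replicate number as a block it was 0.80 (FDR 0.0384). Hoxa5 was at 5.16, 3.27, 2.77 and 2.28 CPM in MLL-ENL libraries, against 1.5, 1.09 and 1.35 CPM in controls (1.35, FDR 0.17). In all, 6 of the 10 Hox genes were higher in every MLL-ENL library than in every control, against 3.71% of all genes tested. The wider list of MLL fusion targets had 23 of 25 members tested. Of these, the 5 named above rose and none fell (0.161% and 0.188% of all genes did). The median was 0.22, or 0.37 without MLL-ENL library 2. Of the cofactors through which MLL fusions act, such as Dot1l, Men1 and the elongation factors, none of 22 passed (median −0.06).

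**Figure D1:**
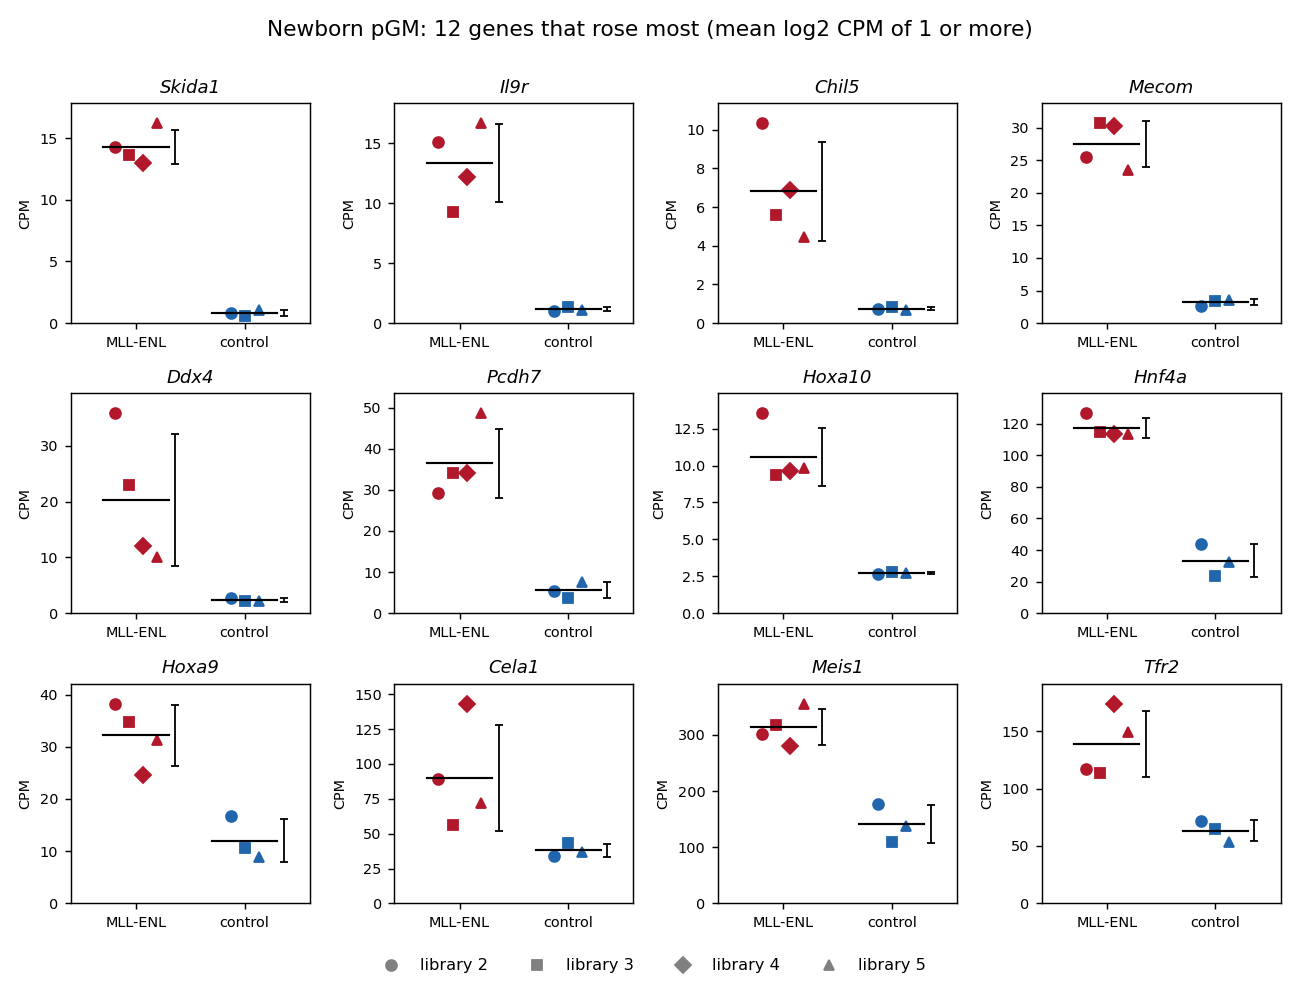
Level (CPM, linear axis from 0) in each newborn pGM library of the 12 genes that rose most among those with a mean log2 CPM of at least 1; points are libraries, shaped by their number, the horizontal line is the group mean and the bar its SD. The 12 were chosen among genes with the lowest MLL-ENL library above the highest control, and predicted models were left out.

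Genes best known from other cells and tissues also rose. Il9r, the receptor chain for interleukin 9, a cytokine of mast cells and T cells, was at 15.1, 9.28, 12.2 and 16.6 CPM in MLL-ENL libraries 2, 3, 4 and 5, against 1.0, 1.36 and 1.13 CPM in control libraries 2, 3 and 5 (3.51 ± 0.69, FDR 0.00718). Pcdh7, an adhesion protein of the protocadherin family, was at 29.1, 34.1, 34.2 and 48.6 CPM in MLL-ENL libraries, against 5.51, 3.61 and 7.53 CPM in controls (2.72 ± 0.39, FDR 8.84e-05). Hnf4a, a nuclear receptor known from liver and gut, was at 126, 115, 114 and 114 CPM in MLL-ENL libraries, against 43.9, 23.3 and 32.7 CPM in controls (1.81 ± 0.33, FDR 0.00281). In each of these the groups were well apart, and Hnf4a was the steadiest across the MLL-ENL libraries. The hepatocyte gene Alb was at 0.906, 2.64, 1.91 and 0.653 CPM in MLL-ENL libraries, against 1.31, 6.68 and 4.89 CPM in controls. Of 10 hepatocyte genes tested, Alb among them, none passed FDR 0.05 (median −0.67, or −0.13 without control library 3). The part of hepatocyte RNA in the level of Hnf4a was not tested. Ddx4, the RNA helicase Vasa of germ cells, was at 35.8, 23, 12.1 and 10.1 CPM in MLL-ENL libraries, against 2.69, 2.18 and 2.26 CPM in controls. It was highest in MLL-ENL library 2 and the controls lay together (3.08 ± 0.70, FDR 0.0294, and 0.0949 with the replicate block). Chil5, a chitinase-like secreted protein, was at 10.3, 5.59, 6.87 and 4.44 CPM in MLL-ENL libraries, against 0.751, 0.818 and 0.677 CPM in controls (3.16 ± 0.64, FDR 0.00905). In control pGM at 10 weeks, Ddx4 was at 6.33 to 11.1 CPM and Hnf4a at 17.9 to 32.3 CPM. Pcdh7 was at 2.35 to 3.01, Il9r at 0 to 0.301 and Chil5 at 0.255 to 0.843 CPM there. Il9r had an FDR from 0.0567 to 0.0925 without one or another control, Chil5 from 0.0599 to 0.0925, Ddx4 from 0.0506 to 0.202 without any one control or MLL-ENL library 2 or 3, and Hnf4a 0.0583 without control library 3.

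Cela1 and Tfr2 were highest in the library with the most erythroid transcripts. Cela1, an elastase best known from the pancreas, was at 89.2, 55.9, 143 and 72.2 CPM in MLL-ENL libraries 2, 3, 4 and 5, against 33.9, 43.3 and 36.8 CPM in control libraries 2, 3 and 5 (1.25 ± 0.29, FDR 0.0314). Tfr2, the second transferrin receptor, which senses iron in liver and erythroid cells, was at 117, 113, 174 and 150 CPM in MLL-ENL libraries, against 71.5, 64.5 and 53.5 CPM in controls (1.13 ± 0.23, FDR 0.00906). Neither group reached into the other, which the choice of these genes required. Without that library Cela1 differed by 0.93 (FDR 0.326) and Tfr2 by 1.0 (FDR 0.0744). With the replicate block, which also sets that library aside, the FDR of Cela1 and Tfr2 was 0.365 and 0.165. With the block in the 7 libraries alone it was 0.0575 and 0.0211. Tfr2 also missed the threshold without control library 3 or 5 (0.0599 and 0.114), and Cela1 without any one control or MLL-ENL library 2 (0.0528 to 0.219).

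Of genes nearly silent in control pGM, Sva had the largest fold change. Sva, which encodes a protein of the seminal vesicle, was at 4.67, 5.27, 3.37 and 5.55 CPM in MLL-ENL libraries 2, 3, 4 and 5 and at 0 in all 3 controls. Set against a floor of 3 counts over the control group (0.0732 CPM), MLL-ENL pGM were at least 68.8-fold higher (FDR 6.52e-08). Chga, the chromogranin of neuroendocrine granules, was at 1.12, 1.85, 2.71 and 0.848 CPM in MLL-ENL libraries, with a single read in the controls (FDR 0.00318). Ednra, the endothelin receptor A of smooth muscle, was at 4.32, 6.07, 5.94 and 3.72 CPM in MLL-ENL libraries, against 0.438, 0 and 0.677 CPM in controls (3.74 ± 0.73, FDR 0.00657). These rose in every MLL-ENL library above every control. The carboxypeptidase gene Cpvl (3.36, FDR 0.0275) and the monocarboxylate transporter gene Slc16a11 (3.27, FDR 0.0422) rose in the same way, with FDRs of 0.0954 and 0.149 under the replicate block, and they missed the threshold in 4 and 6 of the 7 fits that left out one library. Ednra had an FDR of 0.0588 without control library 2 and 0.083 without control library 3.

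The remaining rises included Gp9, part of the platelet receptor for von Willebrand factor (1.11, FDR 0.0264), and the homeobox gene Six5 (1.92, FDR 0.00905). The protease inhibitor gene Spint2 (0.78, FDR 0.0102), Gstm5, Pheta2 and Nsmaf rose too. Gp9 was at 62.1, 51.0, 55.3 and 57.2 CPM in MLL-ENL libraries, against 27.3, 24.3 and 26.9 CPM in controls. It was the only one of 15 megakaryocyte genes past FDR 0.05 (0.161% of all genes rose), with a list median of 0.21, or 0.42 without control library 5. Its FDR was 0.0565 with the replicate block, and 0.0599 to 0.196 in 6 of the 7 fits that left out one library, the exception being MLL-ENL library 3. Six5 had an FDR of 0.128 without control library 5, and Spint2 of 0.12 without control library 2 and 0.0968 without control library 5. Gstm5, Pheta2 and Nsmaf overlap other transcribed genes on GRCm38, and since the sources used here do not give the strand setting of the counting, their reads cannot be told apart from those of 4933431E20Rik, Smdt1 and Sdcbp. Their FDRs with the block were 0.304, 0.212 and 0.0544, and they missed the threshold in 4, 5 and 6 of the 7 fits that left out one library. Gstm5 was highest in MLL-ENL library 4, and without it the difference was 0.69 (FDR 0.534), against 1.06 with it.

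Genes of antigen presentation and of dendritic cells were among those that fell. Cd74, the invariant chain that escorts MHC class II molecules, was at 143, 54.2, 56.1 and 38.0 CPM in MLL-ENL libraries 2, 3, 4 and 5, against 675, 155 and 224 CPM in control libraries 2, 3 and 5 (−2.27 ± 0.53, FDR 0.0393). H2-Aa, an MHC class II alpha chain, was at 36.2, 12.3, 11.2 and 8.29 CPM in MLL-ENL libraries, against 146, 44.2 and 50.1 CPM in controls (−2.24 ± 0.53, FDR 0.0405). H2-Eb1, a beta chain, was at 11, 5.12, 5.02 and 4.18 CPM in MLL-ENL libraries, against 68.4, 14.3 and 20.6 CPM in controls (−2.45 ± 0.52, FDR 0.0142). In all 3 genes the library numbered 2 was the highest of its group in both groups. The groups did not overlap, which was a condition for choosing these genes. Of 10 MHC class II genes tested, these 3 fell and none rose (0.188% and 0.161% of all genes did). The median was −0.84, and 5 were lower in every MLL-ENL library than in every control (3.91% of all genes tested were). Without control library 2 the median was −0.24, and Cd74, H2-Aa and H2-Eb1 differed by −1.38, −1.48 and −1.47 (FDR 0.659, 0.583 and 0.551). These 3 genes also missed the threshold without MLL-ENL library 3, 4 or 5, with FDRs from 0.0672 to 0.226. With the replicate block in all 47 libraries they passed it (0.0371, 0.0351 and 0.0404).

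Nrp1, a co-receptor for semaphorins and VEGF that plasmacytoid dendritic cells carry, was at 4.04, 1.90, 1.58 and 1.96 CPM in MLL-ENL libraries, against 29.0, 13.9 and 12.5 CPM in controls (−2.96 ± 0.68, FDR 0.0309, and 0.195 with the replicate block). Naaa, a lysosomal amidase of dendritic cells, was at 2.65, 2.06, 0.924 and 1.57 CPM in MLL-ENL libraries, against 21.3, 5.25 and 3.69 CPM in controls (−2.49 ± 0.54, FDR 0.0191). Id2, which blocks basic helix-loop-helix factors and is needed for several dendritic and innate lymphoid cells, was at 83.0, 45.5, 37.4 and 36 CPM in MLL-ENL libraries, against 183, 143 and 154 CPM in controls (−1.66 ± 0.37, FDR 0.0255). Again the groups did not overlap, by the choice of these genes, and the library numbered 2 was the highest of each group. Naaa and Nrp1 were the 2 of 18 dendritic cell genes past FDR 0.05 (0.188% of all genes fell). That list had a median of −1.4, or −0.65 without control library 2. Its summed level was 1002, 1162, 1055 and 1141 CPM in MLL-ENL libraries 2, 3, 4 and 5, against 1630, 1508 and 1294 CPM in control libraries 2, 3 and 5, so every MLL-ENL library lay below every control. Irf8, the factor that directs cells to monocyte and dendritic fates, was at 61.9, 55.3, 52.4 and 58.8 CPM in MLL-ENL libraries, against 245, 151 and 58.1 CPM in controls, and was far from the threshold (−1.41, FDR 0.723). Without control library 2 Naaa differed by −1.31 (FDR 0.722) and Nrp1 by −2.48 (FDR 0.229). Id2 missed the threshold in 6 of the 7 fits that left out one library, with FDRs from 0.0599 to 0.167, all but the one without MLL-ENL library 2, and Nrp1 in 5 (0.0599 to 0.229). Naaa also missed it without MLL-ENL library 3, 4 or 5 (0.0506 to 0.147).

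**Figure D2:**
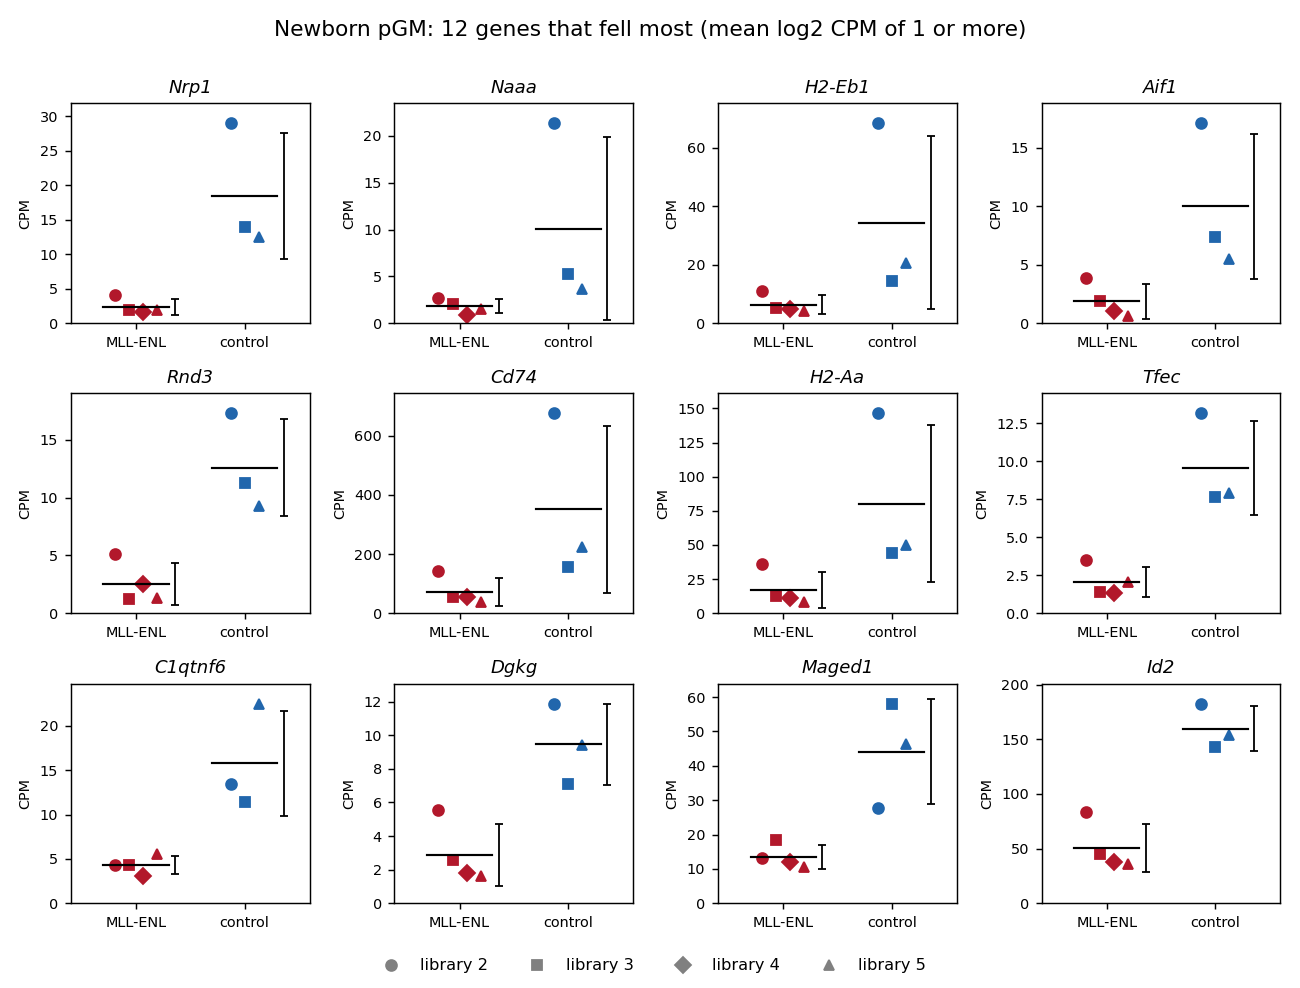
Level (CPM, linear axis from 0) in each newborn pGM library of the 12 genes that fell most among those with a mean log2 CPM of at least 1; points are libraries, shaped by their number, the horizontal line is the group mean and the bar its SD. The 12 were chosen among genes with the highest MLL-ENL library below the lowest control, and predicted models were left out. In 10 of them control library 2 is the highest of the controls.

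Macrophage genes fell in part. Aif1, an actin-binding protein of macrophages, was at 3.90, 1.90, 1.06 and 0.587 CPM in MLL-ENL libraries, against 17.1, 7.36 and 5.50 CPM in controls (−2.43 ± 0.57, FDR 0.0393). Tfec, a transcription factor of the MITF family found in macrophages, was at 3.49, 1.42, 1.32 and 2.02 CPM in MLL-ENL libraries, against 13.1, 7.63 and 7.90 CPM in controls (−2.22 ± 0.37, FDR 0.00118). Tfec stayed past the threshold in each fit that left out one library, while Aif1 did so only without control library 5 or MLL-ENL library 2, with FDRs from 0.0599 to 0.458 in the others. Of 19 monocyte and macrophage genes tested, Aif1 was the only one past FDR 0.05 (0.188% of all genes fell), yet all 19 had a negative log2 fold change. Their median was −0.98, from −1.07 to −0.79 when one library was left out, and 12 were lower in every MLL-ENL library than in every control (3.91% of all genes tested were). Csf1r, the receptor for the macrophage growth factor CSF1, was at 71.3, 65.8, 59.2 and 62.7 CPM in MLL-ENL libraries, against 252, 148 and 128 CPM in controls (−1.44, FDR 0.563). Its MLL-ENL libraries lay together, while its controls were spread more widely. The summed level of the list was 1705, 2233, 1405 and 1786 CPM in MLL-ENL libraries, against 3024, 2628 and 2453 CPM in controls, which do not overlap. Genes of the resident macrophages of the liver had a summed level of 58.0, 49.1, 174 and 48.2 CPM in MLL-ENL libraries, against 67.9, 141 and 54.5 CPM in controls, and none of 13 passed FDR 0.05 (median −0.39). That sum was lower in MLL-ENL in each of the 3 pairs of libraries with the same number, with 10, 13 and 12 of the 13 genes lower in the pairs numbered 2, 3 and 5, while MLL-ENL library 4, which has no partner, had the highest sum of all. The median turned to 0.38 without control library 3 and was −1.13 without MLL-ENL library 4. It was −0.94 with the replicate block, which also sets MLL-ENL library 4 aside. The part of such cells, or of mature monocytes and dendritic cells in the sorted gate, in these results was not tested.

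Other genes that fell encode secreted proteins, a receptor and membrane proteins. C1qtnf6, a secreted relative of complement C1q, was at 4.32, 4.33, 3.04 and 5.61 CPM in MLL-ENL libraries, against 13.5, 11.4 and 22.5 CPM in controls (−1.86 ± 0.28, FDR 0.000137). Ptger2, the prostaglandin E2 receptor EP2, was at 11.2, 9.02, 7.79 and 8.75 CPM in MLL-ENL libraries, against 24.3, 21.2 and 22.6 CPM in controls (−1.31, FDR 0.00586). Serpinf1, which encodes the secreted factor PEDF, was at 40.5, 38.0, 26.6 and 32.2 CPM in MLL-ENL libraries, against 86.8, 82.4 and 81.1 CPM in controls (−1.28, FDR 0.00381). All 3 kept an FDR under 0.05 in each fit that left out one library. Ifitm1, an interferon-induced membrane protein also present in early progenitors, was at 209, 207, 293 and 184 CPM in MLL-ENL libraries, against 505, 564 and 547 CPM in controls (−1.27, FDR 0.00586). It kept its call in those fits too, and it was the only one of 22 type I interferon genes past FDR 0.05 (0.188% of all genes fell). The list median was 0.04, from −0.24 without control library 2 to 0.51 without control library 3. Emb, a chaperone of lactate transporters and the most abundant of the genes that fell, was at 309, 421, 285 and 344 CPM in MLL-ENL libraries, against 701, 588 and 630 CPM in controls (−0.91, FDR 0.00586, and 0.0717 without control library 2).

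Dgkg, a diacylglycerol kinase, was at 5.58, 2.58, 1.78 and 1.63 CPM in MLL-ENL libraries, against 11.9, 7.09 and 9.41 CPM in controls (−1.71 ± 0.36, FDR 0.0138). Rnd3, which binds GTP without splitting it, was at 5.09, 1.27, 2.51 and 1.31 CPM in MLL-ENL libraries, against 17.3, 11.2 and 9.26 CPM in controls (−2.32 ± 0.51, FDR 0.0225). Maged1, an X-linked adaptor of the MAGE family, was at 13.2, 18.3, 11.9 and 10.5 CPM in MLL-ENL libraries, against 27.8, 58.1 and 46.3 CPM in controls (−1.71 ± 0.31, FDR 0.00281). In Maged1 the lowest control was library 2, the control with the highest Xist level, and the part of sex in this gene was not tested. Abcd2, which carries very long fatty acids into peroxisomes, was at 7.88, 9.60, 6.40 and 10.4 CPM in MLL-ENL libraries, against 28.4, 22.9 and 28.3 CPM in controls (−1.63, FDR 0.00906, and 0.0936 with the replicate block). In all of these the groups did not overlap, and Dgkg, Rnd3 and Maged1 were picked among genes for which that held. Without control library 2 the FDR of Dgkg was 0.142, that of Rnd3 0.178 and that of Abcd2 0.065, and without control library 3 that of Maged1 was 0.051. Dgkg also missed the threshold without MLL-ENL library 3, 4 or 5 (0.0506 to 0.114), Rnd3 without those or control library 3 (0.0599 to 0.123), and Abcd2 without MLL-ENL library 4 (0.075). Tlr3, the sensor of double-stranded RNA, fell too, at 0.488, 0.105, 0.132 and 0.131 CPM in MLL-ENL libraries, against 3.38, 1.09 and 2.03 CPM in controls (−3.34, FDR 0.0303, and 0.111 with the replicate block). It missed the threshold in 5 of the 7 fits that left out one library (0.0698 to 0.233).

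The rest of the genes that fell were Gpr15, Siglece, Cyp2j6, Gramd3, Cox4i2, BC064078, Ppp1r21, Soat1, Il11ra1 and the pseudogene Rpl3-ps2, with log2 fold changes from −0.85 in Il11ra1 to −3.74 in Gpr15. Cox4i2, a subunit of cytochrome c oxidase, lost its call whichever library was left out, and Gpr15, Siglece, Cyp2j6 and Gramd3 lost theirs in 6 of the 7 fits. Ppp1r21 differed by −1.0, or by −0.55 without control library 3 (FDR 0.595). The call of Rpl3-ps2 rested on one library, since it was at 0.837, 0.897, 0.528 and 1.04 CPM in MLL-ENL libraries 2, 3, 4 and 5, against 0.438, 23 and 0.753 CPM in control libraries 2, 3 and 5. Without control library 3 it differed by 0.48 in the opposite direction. Gpr15 and Il11ra1 overlap other genes, Cpox among them, whose reads cannot be told apart from theirs for the reason given above.

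Neutrophil granule genes had negative medians, without a call in the unpaired fit. Of 12 genes of primary granules, the first to form in myeloid cells, none passed FDR 0.05 (median −0.74). Their summed level was 6360, 11961, 5989 and 11386 CPM in MLL-ENL libraries 2, 3, 4 and 5, against 12920, 12063 and 19794 CPM in control libraries 2, 3 and 5. Every MLL-ENL library was below every control, though MLL-ENL library 3 and control library 3 lay within a few percent of each other. Most of the sum was Mpo, at a mean of 6973 CPM in MLL-ENL and 12093 CPM in control pGM. Its groups overlapped, with the highest MLL-ENL library at 9612 CPM and the lowest control at 9560 CPM. Of the 12 genes, 4 had a positive log2 fold change. Of 15 genes of secondary and tertiary granules none passed either (median −1.65), and that median was 0.47 without control library 5, in which the list summed to 473 CPM against 61.0 to 154 CPM in the other libraries. The eosinophil list behaved alike, with a median of −2.11 over 10 genes, or −0.38 without control library 5, at 268 CPM there against 23.4 to 44.0 CPM elsewhere.

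Erythroid genes were higher on the median in MLL-ENL pGM, by 1.33 over 22 genes, none of which passed FDR 0.05. MLL-ENL library 4 alone held 19331 CPM of them, while MLL-ENL libraries 2, 3 and 5 held 3473, 3671 and 3922 CPM and control libraries 2, 3 and 5 held 1712, 3637 and 3636 CPM. Without MLL-ENL library 4 the median was 0.24, and it was 0.33 with the replicate block, which also sets that library aside. Lymphoid genes had a median of −0.83 over 15 genes, −0.17 with the block, or 0.08 without control library 3, the library with the highest summed level at 6082 CPM. Genes of mitosis (−0.24 over 20), DNA replication (−0.02), the p53 response (−0.03), glycolysis (−0.11), cholesterol synthesis (0.11) and ribosome biogenesis (−0.01) had medians from −0.24 to 0.11, against 0.00 over all genes, with no member past FDR 0.05. The mitosis list was lower in MLL-ENL on the median in each pair (−0.53, −0.02 and −0.39 in the pairs numbered 2, 3 and 5), and its median was −0.34 with the replicate block.

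**Figure D3:**
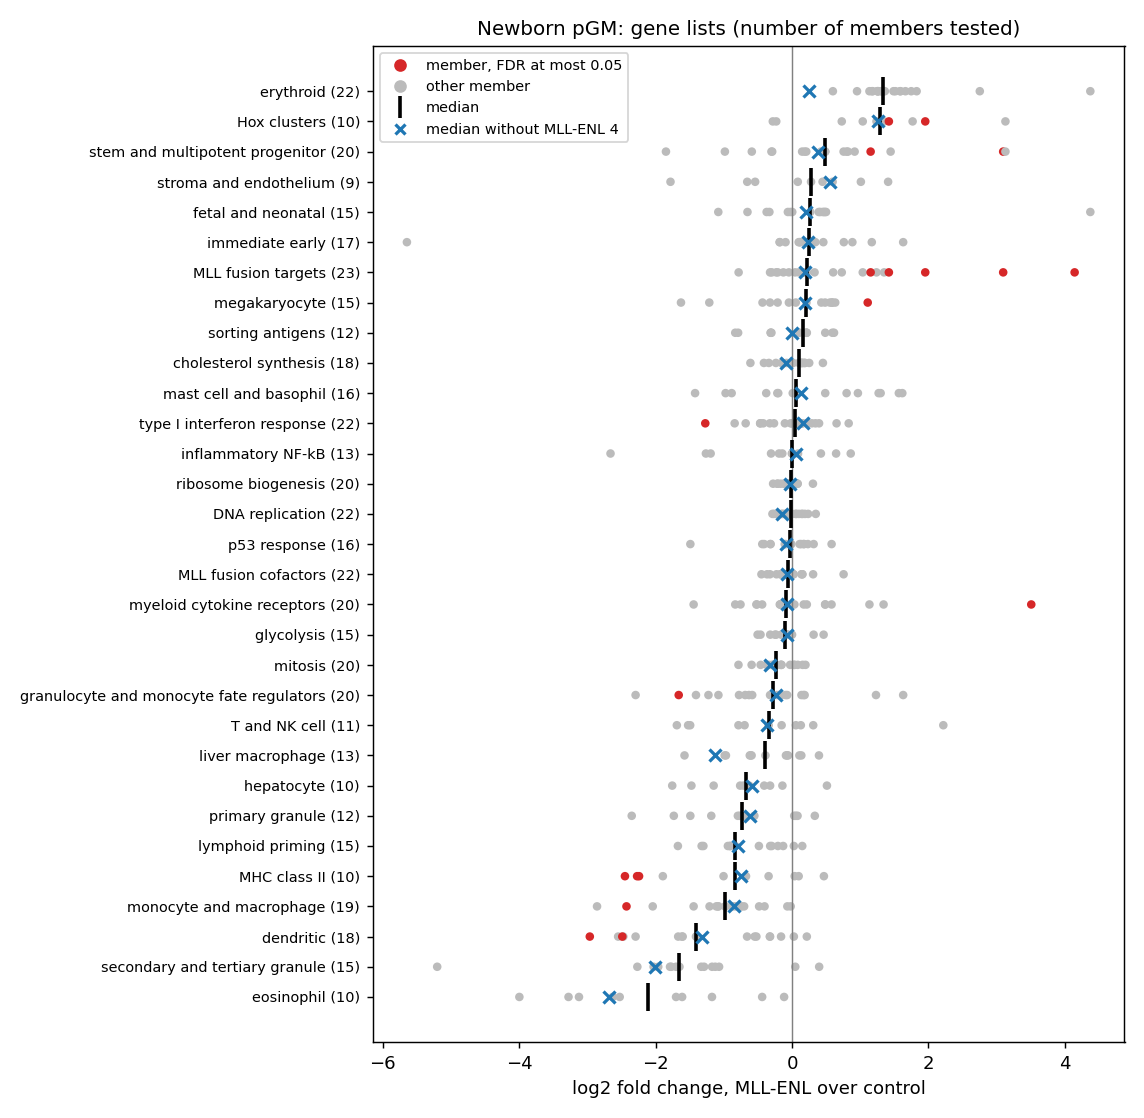
Log2 fold change of MLL-ENL over control pGM for each tested member of the gene lists (number tested in brackets); red points passed FDR 0.05, black bars are list medians and blue crosses the medians without MLL-ENL library 4. The erythroid median falls to 0.24 without that library, while the Hox, monocyte and dendritic medians change little.

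**Figure D4:**
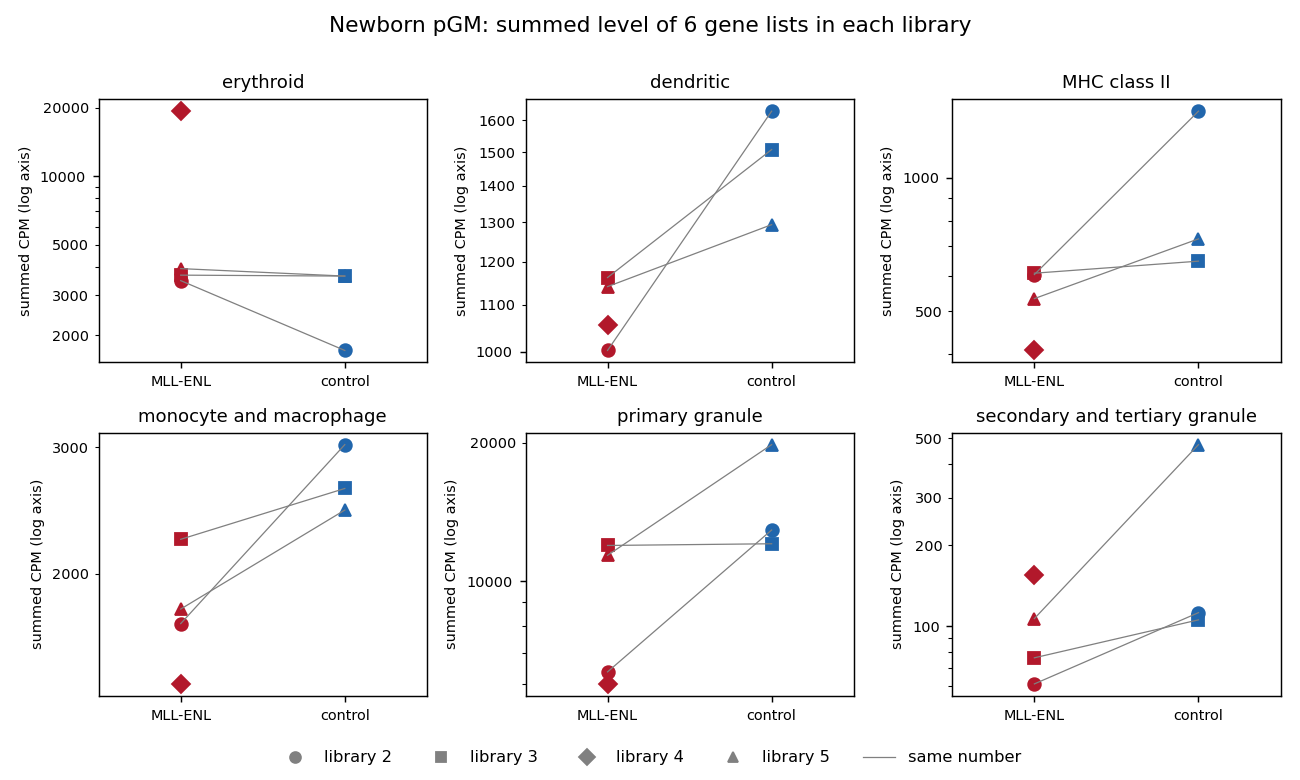
Summed CPM (log axis) of 6 gene lists in each newborn pGM library; lines join MLL-ENL and control libraries with the same number, and MLL-ENL library 4 has no partner. MLL-ENL library 4 stands apart in the erythroid list at 19331 CPM, and control library 5 in the secondary and tertiary granule list at 473 CPM.

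Libraries with the same number deviated together, so the numbers were also used as pairs in a fit of the 7 libraries alone. MLL-ENL library 4 has no control with its number and does not count toward the difference in that fit, nor with the block in all 47 libraries. Of 12929 genes, 158 passed FDR 0.05 there (1.22%), of which 57 rose (0.441%) and 101 fell (0.781%), and 44 of them were among the 52. This fit estimates its spread from few residual degrees of freedom, and its count went from 118 to 496 when one pair was left out. Of the genes that passed there and not in the unpaired fit, some of the largest are given here. Hlf, a factor of hematopoietic stem cells, was at 104, 83.8, 93.8 and 110 CPM in MLL-ENL libraries 2, 3, 4 and 5, against 47.3, 24.0 and 36.6 CPM in control libraries 2, 3 and 5. Its groups were far apart, and its log2 fold change was 1.5 ± 0.16 paired (FDR 0.00253) and 1.44 ± 0.39 unpaired (FDR 0.116). Of the 20 stem and multipotent progenitor genes, Hlf among them, 5 rose and 2 fell in the paired fit (0.441% and 0.781% of all genes did). Among the falls was Fgd5 (−2.02, FDR 0.0303). The median of that list was 0.38 paired and 0.48 unpaired. In the unpaired fit 2 of the 20 rose, Mecom and Meis1, and none fell (0.161% and 0.188% of all genes did). There 5 had a negative log2 fold change. Cyp11a1, the enzyme that starts steroid synthesis, was at 27.4, 27.4, 25.7 and 27.5 CPM in MLL-ENL libraries, against 12.3, 9.27 and 12.0 CPM in controls (1.30 ± 0.17 paired, FDR 0.00616). B3gnt7, a glycosyltransferase, rose by 1.16, the protease gene Bmp1 by 1.28 and the tight junction gene Cgnl1 by 2.01 in the paired fit (FDR 0.0147, 0.0154 and 0.0169).

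Genes known from phagocytes were among the paired falls. Cybb, the catalytic subunit of the NADPH oxidase, was at 8.37, 7.75, 7.66 and 11.3 CPM in MLL-ENL libraries, against 31.5, 31.1 and 39.9 CPM in controls (−1.92 ± 0.17 paired, FDR 0.00076). Ccr2, the chemokine receptor of monocytes, was at 23.3, 16.6, 9.24 and 11.8 CPM in MLL-ENL libraries, against 97.5, 52.5 and 38.2 CPM in controls (−1.81 ± 0.16 paired, FDR 0.00076). In both, every MLL-ENL library was below every control. The interferon-inducible gene Ifi205 (−2.49), the phospholipase gene Plbd1 (−2.48), the myeloid lectin gene Clec5a (−2.02) and the leukocyte adhesion gene Jaml (−1.83) fell in the same fit, with FDRs from 0.00403 to 0.0188. So did Csf1r (−1.35, FDR 0.00463), and in that fit 6 of the 19 monocyte and macrophage genes fell and none rose (0.781% of all genes fell). Of the granule genes, 4 of 12 of primary granules fell there, among them Elane, neutrophil elastase (−1.56, FDR 0.0311), and 6 of 15 of secondary and tertiary granules, Cybb and the alarmin gene S100a8 (−1.59, FDR 0.0119) among them. The liver macrophage gene Clec4f (−1.22, FDR 0.0435) and the proliferation gene Mki67 (−0.75, FDR 0.0452) were the only members of their lists that did. In the paired fit of all 47 libraries, 3 genes fell that the unpaired fit did not call. They were the guanine exchange factor gene Arhgef40 (−1.65, FDR 0.0404), Sorl1, a sorting receptor (−1.41, FDR 0.0496), and Gata3, a factor of T cells and innate lymphoid cells. Gata3 was at 3.35, 3.48, 3.83 and 1.63 CPM in MLL-ENL libraries, against 10.1, 7.29 and 6.10 CPM in controls (−1.5, FDR 0.0404). Hemoglobin genes turned sign between the fits, since Hbb-bs was at 34.2, 172, 1699 and 76.0 CPM in MLL-ENL libraries 2, 3, 4 and 5, against 93.1, 324 and 169 CPM in control libraries 2, 3 and 5. It differed by 1.34 unpaired, without a call, and by −1.17 in the paired fit (FDR 0.00425), in which MLL-ENL library 4 takes no part.

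The same contrast was set beside those in the populations before and after pGM at P0, HPC and GMP, and beside pGM of bone marrow at 10 weeks, each against its own controls. Libraries of the P0 populations carry the same numbers, and the labels do not say whether they came from the same animals. In HPC, 21 of the 24 genes that rose in pGM also rose (2.42% of all genes did), and 17 of the 28 that fell also fell (5.18% of all genes did). These are 5.82% of the genes that rose and 2.20% of those that fell in HPC. In GMP, 8 of the 24 rose and 3 of the 28 fell (0.0805% and 0.0336% of all genes did), which are 66.7% and 60% of all that GMP had. In pGM at 10 weeks, 5 of the 24 rose and 1 of the 28 fell (0.0537% and 0.0403%), which are 62.5% and 16.7% of those in that comparison. None passed FDR 0.05 in the opposite direction in the 3 comparisons. Without library 73, an MLL-ENL library at 10 weeks that stood apart in an earlier account of these data, 2 of the 24 rose there, Sva and Il9r, and 1 of the 28 fell, C1qtnf6 (0.0202% of all genes each way).

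**Figure D5:**
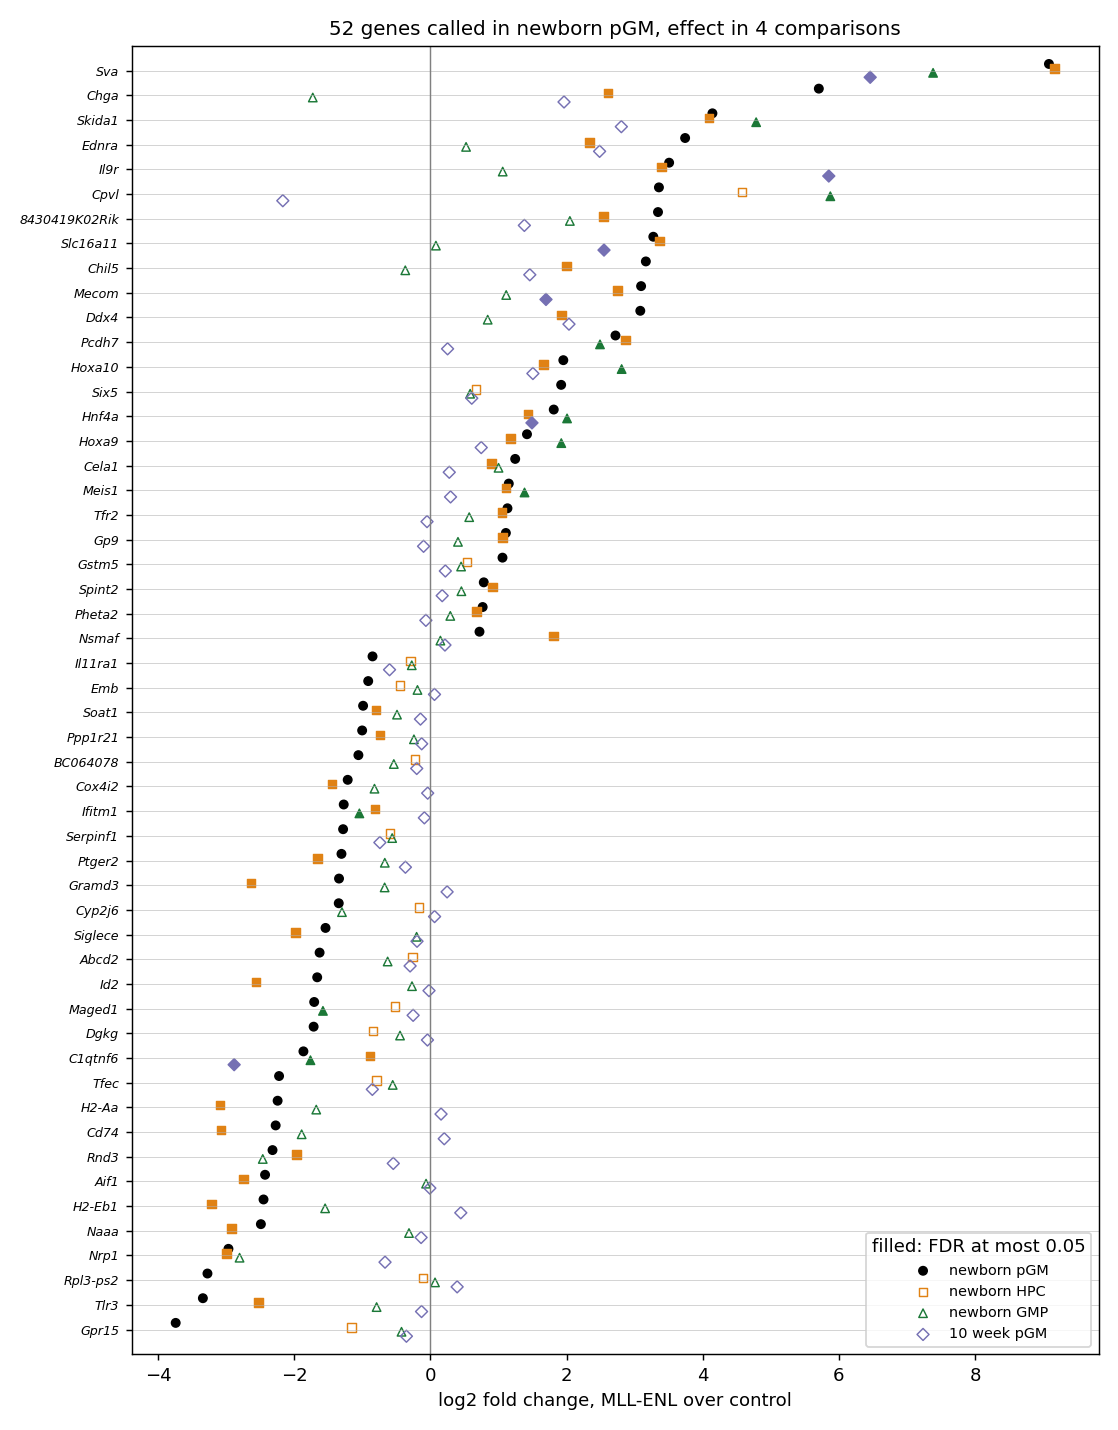
Log2 fold change of MLL-ENL over control for the 52 genes past FDR 0.05 in newborn pGM (black), in newborn HPC (squares), newborn GMP (triangles) and pGM at 10 weeks (diamonds), filled where FDR was at most 0.05. Sva, Hnf4a and Skida1 are to the right of 0 in all 4 comparisons, and C1qtnf6 is to the left of 0 in all 4.

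Mean levels of several of these genes were ordered from HPC over pGM to GMP in both genotypes, given here without a test. Mecom averaged 172 CPM in MLL-ENL and 25.6 CPM in control HPC, 27.5 and 3.21 CPM in MLL-ENL and control pGM, and 2.34 and 1.06 CPM in MLL-ENL and control GMP. Skida1 averaged 25.1, 14.3 and 8.53 CPM in MLL-ENL HPC, pGM and GMP, and 1.48, 0.804 and 0.302 CPM in control HPC, pGM and GMP. Hoxa9 averaged 70.2, 32.2 and 26 CPM in MLL-ENL HPC, pGM and GMP, and 31.0, 12.0 and 6.83 CPM in the controls of these populations. The presentation gene with the largest level was ordered the same way. Cd74 averaged 1321, 72.8 and 9.82 CPM in MLL-ENL HPC, pGM and GMP, and 11156, 351 and 36.3 CPM in their controls. C1qtnf6, at 4.32 CPM in MLL-ENL and 15.8 CPM in control pGM, was at 3.85 and 28.3 CPM in MLL-ENL and control pGM at 10 weeks. Among the controls at P0, 15 of the 24 genes that rose were higher in HPC than in GMP and 5 were lower (16.4% and 12.8% of all genes were), and of the 28 that fell 16 were higher and 6 lower.

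Where the effect of MLL-ENL in pGM differed from that in HPC was tested as a contrast of 4 groups, and 6 genes passed FDR 0.05 (0.0403%), of which 3 were higher and 3 lower in pGM (0.0201% each). Cst3, cystatin C, a protease inhibitor high in dendritic cells, averaged 453 ± 56.5 CPM in MLL-ENL and 651 ± 89.3 CPM in control pGM, and 711 ± 169 CPM in MLL-ENL and 4044 ± 1315 CPM in control HPC (SD; n = 4 and 3 in pGM, 4 and 4 in HPC). The effect was −0.52 in pGM and −2.51 in HPC, a difference of 1.99 ± 0.29 (FDR 0.00043). H2-DMa and H2-DMb1, which load peptides onto MHC class II, differed in the same way, by 1.58 ± 0.30 and 1.66 ± 0.26 (FDR 0.019 and 0.00077). H2-DMa was nearly level in pGM, at 272 ± 56.4 CPM in MLL-ENL and 265 ± 22.3 CPM in control libraries, and lower in MLL-ENL HPC, at 196 ± 24.6 CPM against 570 ± 116 CPM in control HPC. Xdh, xanthine dehydrogenase, averaged 2.83 CPM in MLL-ENL and 6.87 CPM in control pGM, and 16.3 CPM in MLL-ENL and 3.09 CPM in control HPC (difference −3.66 ± 0.64, FDR 0.005). Nsmaf rose in both populations, by 0.72 in pGM and 1.81 in HPC (difference −1.09 ± 0.22, FDR 0.043). Mapk4, an atypical MAP kinase, averaged 0.411 CPM in MLL-ENL and 1.30 CPM in control pGM, and 0.880 CPM in MLL-ENL and 0.0511 CPM in control HPC (difference −5.57 ± 1.08, FDR 0.022).

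Against GMP no gene had a different effect at FDR 0.05, with 372 genes (2.5%) at an unadjusted p of 0.05, and 2 genes by DESeq2. A p that misses the threshold does not show that the effects were alike. Against pGM at 10 weeks 1 gene did (0.00671%). Klhl4, a member of the kelch-like family, averaged 2.38 ± 0.651 CPM in MLL-ENL and 0.716 ± 0.429 CPM in control pGM at P0 (SD, n = 4 and 3), and 0.102 ± 0.115 CPM in MLL-ENL and 5.33 ± 1.02 CPM in control pGM at 10 weeks (n = 4 each). The effect was 1.71 at P0 and −5.74 at 10 weeks, a difference of 7.45 ± 0.94 (FDR 1.4e-05), and it was 7.0 without library 73. Age goes with tissue in this contrast, neonatal liver against bone marrow, and the part of each cannot be told apart.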

How the data were processed

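RNA of sorted progenitors was purified by Qiagen RNeasy micro plus and made into libraries by Clontech SMARTer, per the labels, and sequenced. The authors deposited an unnormalized count of reads for each Ensembl gene and library, and the submitters' processing notes name STAR 3.0.4, Subread and featureCounts 1.4.5. Neither labels nor table state a genome build, annotation or strand setting. Of 41388 mouse genes, 40340 took a symbol, and gene positions are those of GENCODE vM21 (GRCm38). The transgene lines for human KMT2A and MLLT1 stayed out of library sizes.

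All 47 libraries of P0 and 10 weeks outside the MLL-ENL (x2) set were fitted together, with 12 group means, in edgeR 4.0.16 on R 4.3.3, with TMM scaling, the quasi-likelihood F test and filterByExpr, which left 14899 genes and a biological coefficient of variation of 0.297. Log2 CPM used a prior count of 2, and a floor is 3 counts, for counting error only. Within groups no pair of libraries was a duplicate. Tests were also run on simulated counts with known changes. Tables and plots were made in Python 3.11.15 using matplotlib 3.10.9, scipy 1.17.1, numpy 2.4.6 and pandas 2.3.3.

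Numbers were taken to pair libraries because the deviations from the group means of same-numbered libraries correlated, over 10939 genes. The correlations were 0.53, 0.45 and 0.24 for numbers 2, 3 and 5, against −0.47 to 0.10 between different numbers. For each gene the deviations within a group cancel out, so a high correlation with a library lowers those with the rest of its group. The contrast with different numbers is therefore in part built in. The labels do not say what a number stands for. Alternatives were the replicate block, RLE scaling, no filter, other sets of libraries, DESeq2 1.42.0 and leaving out each library. The block in the 7 libraries without one pair was added after seeing the data.

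The members and gene lists were chosen with earlier results of these data known. Of genes past FDR 0.05, values are given in each library for the 12 that rose and the 12 that fell most with a mean log2 CPM of at least 1 and no overlap, excluding predicted models. With the block, up to 10 each way were eligible, and of each list the members past FDR or the 2 with the smallest p. Other genes given with values in each library, such as Emb, Ptger2, Irf8, Csf1r, Hoxa5 and Hbb-bs, were chosen after their values were seen.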

Additional observations from a re-analysis of the deposited data

Results flagged for a closer look

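In 6 genes MLL-ENL library 2 lay farther from the other MLL-ENL libraries than a test for a single stray value allows. It was the highest of the 4 at 13.5 CPM for Hoxa10, 126 CPM for Hnf4a, 36.2 CPM for H2-Aa, 11 CPM for H2-Eb1, 4.04 CPM for Nrp1 and 0.488 CPM for Tlr3. These and the 3 list sums below came from 84 values tested (the genes that differed, the list sums and the transgene), chance gives such a value in about 1 in 20 groups, and the genes share their libraries. Control library 2 was also the highest control for H2-Aa, H2-Eb1, Nrp1, Tlr3 and Hnf4a. Among list sums, MLL-ENL library 4 stood apart for erythroid genes at 19300 CPM and liver macrophage genes at 174 CPM, and MLL-ENL library 3 for lymphoid genes at 3710 CPM.

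The effect of MLL-ENL differed between populations or ages in 7 genes by the test of the difference itself. Against newborn HPC the log2 difference was 1.99 for Cst3, 1.66 for H2-DMb1, 1.58 for H2-DMa, −1.09 for Nsmaf, −3.66 for Xdh and −5.57 for Mapk4, which has few reads. Against pGM at 10 weeks it was 7.45 for Klhl4.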

How the results depend on the processing

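The 52 genes that differed became 88 in a fit of all 84 libraries, 103 by DESeq2, 158 with the replicate block in the 7 libraries alone, and 496, 118 or 288 in that paired fit without the pair numbered 2, 3 or 5. Leaving out one library gave 22 to 49. The replicate block in all 47 libraries gave 35. The cause of these differences was not tested. All 52 genes kept their call by DESeq2 and with all 84 libraries, 51 with RLE scaling, 50 without a filter, 45 among the P0 libraries alone, 26 in the 7 libraries alone without a block, 44 with it, 32 with the block in 47, and 20 to 44 with one library left out. Rpl3-ps2 reversed to 0.48 without control library 3, within −3.83 to 0.48 over libraries left out, and to 0.68 in the paired fit without the pair numbered 3.

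Differences from the effect in HPC were 6, against 34 with all 84 libraries, 35 by DESeq2 and 1 in the compared groups alone. Those from GMP were 0, against 2 by DESeq2. Those from pGM at 10 weeks were 1, against 2 with RLE scaling, 3 with all 84 libraries, 2 in the compared groups alone, 15 by DESeq2 and 1 to 2 with one library left out. Genes at a few reads, such as Mapk4, Gpr15 and Chga, are limited by depth.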
